A study of Drosophila melanogaster with 6 samples.

Results

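Long non-coding and antisense RNA genes of Drosophila melanogaster were read in leg imaginal discs, the larval epithelial sacs from which the adult legs form. The members are the genes whose symbol begins with lncRNA: or asRNA:, with lncRNA:roX1 and lncRNA:roX2 left out, and whose raw counts summed to 100 or more over all 6 libraries, so the members were chosen by their total count. This gave 236 of the 2438 genes of these names (9.68%), in a table of 17612 genes. There were 82 members among 1936 lncRNA: genes and 154 among 502 asRNA: genes. Their presence is a description, while the difference between the groups was not used by the rule.

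The study asked how genes are expressed in leg discs that carry a deletion of a PRE, or Polycomb response element, a DNA element through which Polycomb proteins keep genes silent. The discs other than wild type are labelled Double (3 libraries), and the wild-type discs they are set against are labelled WT (3 libraries). The labels explain neither the name Double nor which elements are missing, and they give no promoter, driver or further allele for either group. Both groups were third-instar larval discs grown at 25 °C, with 20 discs pooled in a replicate. Separate cultures or crosses are not stated, so the p-values measure the spread between these libraries.

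Total counts were 10025174 to 11772621 in Double and 8818943 to 13605668 in WT, so that 1 count was worth 0.0737 to 0.113 CPM (the count relative to the library size, which is scaled by its TMM factor). The leg disc markers Dll, dac, hth, al, Lim1, B-H1, bab2, ap, Scr and Antp were all detected, and their summed level was 2597 to 2679 CPM in Double and 2766 to 2852 CPM in WT. dac is a Polycomb-regulated gene of the intermediate leg segments and was taken here as a candidate target. It had 417.3, 416.4 and 409.3 CPM in Double, against 580.6, 612.6 and 601.5 CPM in WT (edgeR quasi-likelihood test, log2 fold change -0.53, adjusted p = 0.003869). Markers of other tissues differed widely between libraries: the fat body list summed to 3317 to 13680 CPM in Double and 330 to 6989 CPM in WT, and the salivary gland list to 1272 to 3800 CPM in Double and 18.3 to 3677 CPM in WT. WT replicate 1 was lowest in both.

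A long non-coding RNA is a spliced or unspliced transcript without a long reading frame. Some act as RNA, some are by-products of enhancer or promoter activity, and some carry a microRNA or a small nucleolar RNA that is cut out of them. An antisense RNA is transcribed from the strand opposite another gene and can share bases with its mRNA, so that telling the pair apart depends on the strand of each read. In flies such RNAs are known from the Polycomb-regulated Hox clusters, from the heat shock response and from neural stem cells, but most carry only a CR number and have no described role.

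The members were short and weakly expressed. Their median exonic length was 1192.5 bases, and 122 of 236 had a single exon, while the median over 7958 protein-coding genes with the same count sum was 2261 bases. Per kilobase of exon the median member level was 3.22 CPM, against 18.2 CPM for those protein-coding genes, and 20 members lay above that protein-coding median. In total level the median was 3.51 CPM for the members and 34.2 CPM for all 8802 tested genes. 155 members had a mean under 5 CPM and 10 had a mean of 50 CPM or more. All 236 members passed the filter on low counts and none was at 0 in any library. The members spread over the genome, with 34 on chromosome arm 2L, 51 on 2R, 54 on 3L, 53 on 3R, 5 on chromosome 4 and 39 on X. Among the genes that were not members, 1230 had no count in any library and 972 had sums of 1 to 99. The members with the fewest counts were lncRNA:CR44964 and asRNA:CR45806, each with a sum of 101, and lncRNA:CR45233 with 102. Just below the limit stood asRNA:CR31429 and lncRNA:CR44749, each with 99, and asRNA:CR45714 with 98.

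By position (dm6 coordinates), 183 members overlapped a gene on the other strand, among them 153 of the 154 asRNA: members and 30 of the 82 lncRNA: members. A further 18 overlapped only a gene on their own strand, 11 stood head to head with a gene starting within 1 kb, and 24 did neither. For 133 members at least 50% of the exonic bases lay over exons of the other strand. The library kit kept the strand of the RNA, but how HTSeq was set to use it is not stated. 10 members were covered over at least 99% of their bases, and these had count sums of 101 to 225. Because the setting is not stated, the level of a member that shares bases with an abundant mRNA is uncertain. What the counts of these 10 members mean for the setting was not tested.

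Double and WT differed at 2 members, both lower in Double, and at none that was higher. That is 0.847% of the members at an adjusted p under 0.05 in edgeR's quasi-likelihood test, with Benjamini-Hochberg adjustment over all tested genes, and the background over all tested genes was 1.49% (0.545% higher and 0.943% lower). The members' share is thus not above the background. At an unadjusted p under 0.05 there were 6 members higher and 15 lower, or 8.90%, against 12.3% of all tested genes (5.99% higher and 6.27% lower). Of these members, 13 were among the 82 lncRNA: and 8 among the 154 asRNA: members. With DESeq2, 1 member was higher and 3 were lower, against a background of 3.33%. The groups did not overlap at 15 members that were higher in Double (6.36%, background 10.3%) and at 23 that were lower (9.75%, background 9.11%). The median log2 fold change of the members was -0.03, with 110 above 0 and 126 below, and that of all tested genes was 0.00. Members were less precisely measured, with a median standard error (SE) of 0.36 on the log2 scale against 0.11 for all tested genes, so moderate changes of weak members were not detectable at this depth.

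**Figure D1:**
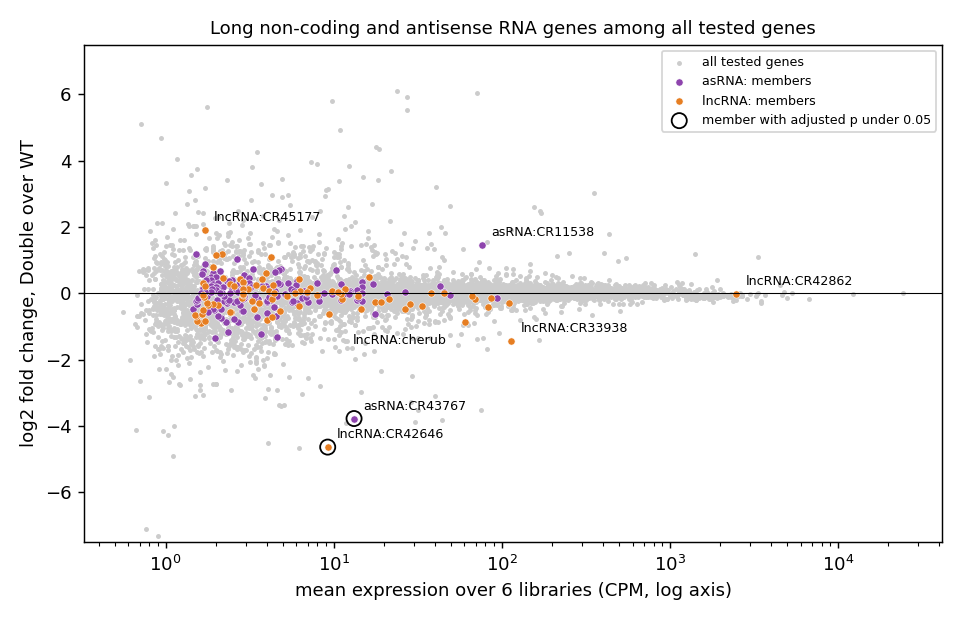
Log2 fold change of Double over WT (vertical axis) against mean expression over the 6 libraries in CPM (horizontal log axis), for all 8802 tested genes in grey, the 154 asRNA: members in purple and the 82 lncRNA: members in orange. The 2 circled members, at -3.77 and -4.63, have an adjusted p under 0.05, and most other members lie near 0 at low expression.

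lncRNA:CR42646 (FBgn0261429) fell furthest. This gene of 8 exons and 2652 exonic bases occupies 5363253 to 5367357 of 2R, plus strand, and no role is annotated for it in the files. It had 7, 9 and 7 counts in Double, against 206, 174 and 202 counts in WT. In CPM these were 0.603, 0.814 and 0.696 in Double, against 15.2, 19.7 and 18.3 in WT. All 3 Double libraries lay far below all 3 WT libraries, 25.2-fold by the means. The log2 fold change was -4.63 (SE 0.22) with an adjusted p of 2.167e-05.

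CG10417, a protein-coding gene on the minus strand, starts 149 bases from lncRNA:CR42646 and points away from it. It moved the other way, with 227.4, 228.1 and 214.2 CPM in Double, against 170.7, 169.0 and 168.0 CPM in WT. It rose by 0.40 on the log2 scale, with an SE of 0.06 (edgeR adjusted p = 0.01738). The groups did not overlap, but the call was lost when any 1 library other than WT replicate 1 was left out (adjusted p 0.06607 to 0.1002). On the other side of lncRNA:CR42646, 46387 bases away, stw had 42.6, 36.6 and 38.5 CPM in Double, against 34.4, 27.6 and 26.7 CPM in WT. Its groups did not overlap either, and it did not pass the test (log2 fold change 0.40, edgeR adjusted p = 0.196).

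asRNA:CR43767 (FBgn0264267) was the other member that fell. It is a single exon of 780 bases on the minus strand of 2L (1158576 to 1159355), of which 89.1% lies over exons of Tango14, a gene named for a screen for factors of protein transport and Golgi organization. The antisense gene had 24, 19 and 16 counts in Double, against 386, 197 and 256 counts in WT. In CPM these were 2.07, 1.72 and 1.59 in Double, against 28.5, 22.3 and 23.2 in WT. The groups were well apart, 13.8-fold by the means, with a log2 fold change of -3.77 (SE 0.18; edgeR adjusted p = 2.167e-05).

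Tango14 itself differed less. It had 29.0, 25.0 and 30.7 CPM in Double, against 45.4, 41.2 and 35.1 CPM in WT. The 3 Double libraries lay below the 3 WT libraries, with a log2 fold change of -0.52 (SE 0.12) that did not pass the edgeR test (adjusted p = 0.0953) and did pass DESeq2 (adjusted p = 0.03407). The counts of asRNA:CR43767 were 7.12%, 6.88% and 5.18% of those of Tango14 in Double, against 62.8%, 54.1% and 66.0% in WT. The antisense counts were therefore not a fixed share of the Tango14 counts. Of the genes on either side, capt, which encodes an actin-binding cyclase-associated protein, had a log2 fold change of -0.21 (edgeR adjusted p = 0.459), and CG5080 one of -0.07 (adjusted p = 0.921).

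Both members were called in all 14 settings tried, with adjusted p from 1.702e-37 to 0.005268. In whole discs, fewer cells that express a gene and less RNA per cell cannot be told apart. The summed markers of fat body, salivary gland and neurons overlapped between Double and WT. Single genes of the fat body and salivary gland lists did separate the groups, in both directions, and none was called. Sgs1 had 182.9, 129.9 and 109.2 CPM in Double, against 0.44, 0.45 and 5.43 CPM in WT (edgeR adjusted p = 0.0678). fat-spondin had 46.4, 27.8 and 41.5 CPM in Double, against 136.0, 146.5 and 90.6 CPM in WT (edgeR adjusted p = 0.0573). The muscle list was lower in Double, at 22.9 to 35.0 CPM against 46.6 to 72.6 CPM in WT, with 2 of its 8 tested genes called, and the haemocyte list stood at 126 to 167 CPM in Double and 175 to 291 CPM in WT, with none of 6 called. A list of 8 eye disc genes (ey, toy, eya, so, dan, danr, gl and sev), picked after values of these data were seen, was also lower in Double, at 65.7 to 106.7 CPM against 110.3 to 153.6 CPM in WT, with none called. The part of fat body, salivary gland, nerve, muscle, blood or eye disc cells in the 2 members was not tested.

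**Figure D2:**
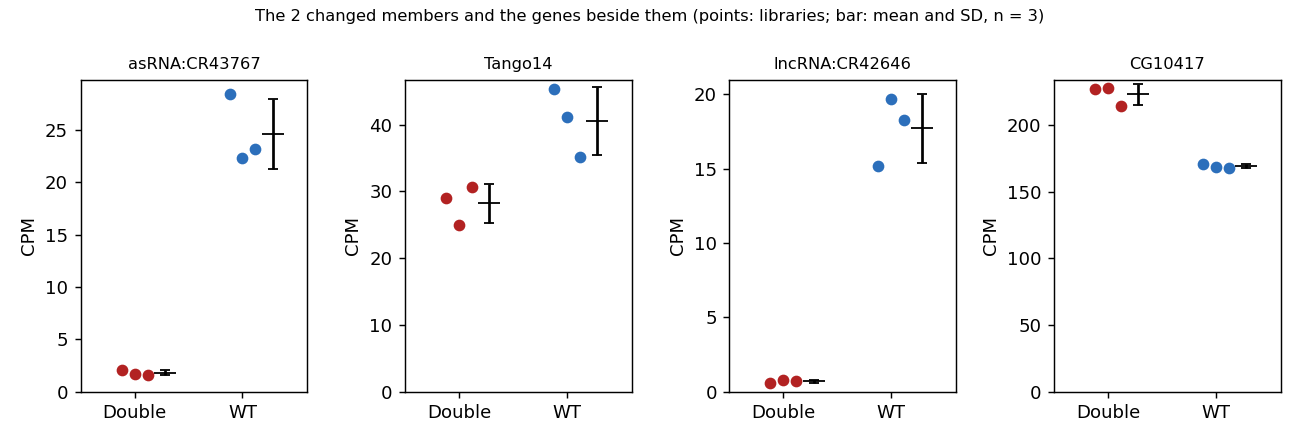
Level in CPM (vertical axes, from 0) of asRNA:CR43767, its other-strand partner Tango14, lncRNA:CR42646 and its head-to-head neighbour CG10417, with Double to the left in red and WT to the right in blue; points are libraries and bars show mean and SD (n = 3). Both RNAs are near 0 in Double, while Tango14 is lower by 0.52 and CG10417 higher by 0.40 on the log2 scale.

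Among the weaker genes that the count sum kept out of the members, 102 were tested and 1 was called. lncRNA:CR45386 (393 bases at 19090583 to 19090975 on the plus strand of 3L) had no counts in the 3 Double libraries, against 23, 13 and 16 counts in WT, or 1.54 ± 0.137 CPM (SD, n = 3). With a floor of 3 counts over the Double libraries, or 0.0917 CPM, it was at least 16.8-fold lower in Double (edgeR adjusted p = 0.0313), where the floor covers counting error only. It passed the filter on low counts through its WT libraries alone, the group where it was high. Its neighbours Mkp3, a MAP kinase phosphatase gene, and MESR6 had log2 fold changes of -0.05 and -0.14 and did not pass.

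Several other members differed by more than 2-fold without passing the edgeR test. They are named because they have the largest log2 fold changes among the members not called whose groups did not overlap. lncRNA:CR45177 on 3L was higher in Double in all libraries, at 2.67, 2.90 and 2.58 CPM, against 0.664, 0.453 and 0.996 CPM in WT. The difference was 1.92 (SE 0.45) on the log2 scale, and the adjusted p was 0.098 by edgeR and 0.03343 by DESeq2. The nearest gene, CG40228, did not share this difference, with a log2 fold change of -0.10 (edgeR adjusted p = 0.726).

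lncRNA:CR33938 is 1 of the most abundant members and lies on 3R between the cuticle protein genes Ccp84Ac and Ccp84Ab, which had at most 1 count in any library. It had 87.9, 40.3 and 56.4 CPM in Double, against 231.5, 123.4 and 145.3 CPM in WT. All Double libraries were below all WT libraries, but the spread within each group was wide. The difference was -1.44 (SE 0.40) on the log2 scale, and the adjusted p was 0.271 by edgeR and 0.03154 by DESeq2. The summed level of the 8 eye disc genes, picked after values of these data were seen, had the same order of libraries. It was 106.7, 65.7 and 91.6 CPM in Double, against 153.6, 110.3 and 131.7 CPM in WT. The most abundant of the 8, so, had a log2 fold change of 0.00, and the others stood below 0. None of the 8 was called, and their part in the result was not tested.

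The other 4 were weak. asRNA:CR43964 on 2R had 2.41, 3.62 and 1.89 CPM in Double, against 8.26, 7.13 and 4.34 CPM in WT (log2 fold change -1.31, SE 0.37, edgeR adjusted p = 0.169). asRNA:CR45143 lies opposite fus, which encodes the splicing regulator Fusilli, and had 2.76, 2.71 and 1.09 CPM in Double, against 6.71, 4.98 and 3.80 CPM in WT (-1.23, adjusted p = 0.281). fus was at 255.8, 247.6 and 258.1 CPM in Double, against 224.1, 211.7 and 220.6 CPM in WT, a log2 fold change of 0.21 that did not pass (edgeR adjusted p = 0.181). Member and partner thus stood on opposite sides of 0 there. lncRNA:CR43989 on 3L had a log2 fold change of 1.19 (edgeR adjusted p = 0.336). asRNA:CR44275, opposite dpn, which encodes the neuroblast transcription factor Deadpan, had 1.18 (adjusted p = 0.382), and dpn itself had 29.1, 30.7 and 27.5 CPM in Double, against 24.3, 21.5 and 20.7 CPM in WT (0.39, adjusted p = 0.122).

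At an unadjusted p under 0.05, 1 of the 5 members on chromosome 4 stood apart. asRNA:CR44029, which lies opposite unc-13, a gene of synaptic vesicle release, had 14.6, 13.57 and 10.1 CPM in Double, against 7.96, 7.69 and 7.60 CPM in WT. The groups did not overlap (log2 fold change 0.72, SE 0.17, edgeR adjusted p = 0.108). unc-13 did not pass the test (log2 fold change 0.20, adjusted p = 0.532). The gene CR43361, 20427 bases away, had 59.2, 58.6 and 53.9 CPM in Double, against 17.0, 14.7 and 16.8 CPM in WT, and rose with an edgeR adjusted p of 3.367e-05. A nearer member, asRNA:CR43425, also opposite unc-13 and 7948 bases from asRNA:CR44029, stood the other way. It had 1.64, 1.54 and 1.69 CPM in Double, against 2.43, 2.15 and 2.08 CPM in WT. Its groups did not overlap, and it did not pass (log2 fold change -0.45, edgeR adjusted p = 0.661).

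Members were next set beside the protein-coding gene on their other strand. 178 members had such a partner and 165 had a tested one. The 2 log2 fold changes had the same sign in 93 of 165 pairs, and Pearson's r across the pairs was 0.40, a description over genes that are not independent and that share libraries and, in part, bases. Pairs with large changes in both genes, such as asRNA:CR45712 with CG15353 and lncRNA:CR44845 with CG5731, weigh most in r. It was not computed without them. Where at least 50% of a member's exonic bases lay over its partner (122 pairs), the member's level per kilobase was 8.99% of the partner's in the median pair. 15 of the 122 members were above their partner and 16 were under 5% of it. asRNA:CR45305 was lowest, at 0.996% of the ribosomal protein gene RpL37A, and asRNA:CR31144 stood at 1.91% of RpL3. Among the members above their partner, asRNA:CR43465, wholly covered by Ucp4B, a mitochondrial uncoupling protein gene, was at 2.86 CPM per kilobase, against 0.147 CPM per kilobase for Ucp4B.

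The partner was called in 4 of 165 pairs, beside 131 of all 8802 tested genes (1.49%). In 3 of the 4 the member's log2 fold change was close to the partner's while the member did not pass. CG15093 fell to 37.8, 52.9 and 40.4 CPM in Double, against 98.7, 136.1 and 97.6 CPM in WT (log2 fold change -1.34, SE 0.18, edgeR adjusted p = 0.02298), beside -1.31 for asRNA:CR43964. CG6414 fell to 31.2, 29.4 and 27.0 CPM in Double, against 78.9, 66.8 and 61.6 CPM in WT (-1.24, SE 0.11, adjusted p = 0.001077). Its antisense gene asRNA:CR45481 had 2.07, 0.995 and 1.29 CPM in Double, against 5.09, 2.26 and 2.44 CPM in WT, or -1.17 (edgeR adjusted p = 0.382).

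CG5731 rose to 43.0, 35.5 and 32.9 CPM in Double, against 14.4, 12.7 and 12.1 CPM in WT (log2 fold change 1.504, SE 0.13, edgeR adjusted p = 9.871e-04). Opposite it, lncRNA:CR44845 had 1.46, 2.71 and 4.07 CPM in Double, against 1.18, 1.02 and 1.45 CPM in WT, or 1.16 (edgeR adjusted p = 0.382). In these 3 pairs the member's counts were 3.38% to 12.4% of the partner's over the 6 libraries. The share varied 1.88-fold for asRNA:CR43964 and 1.96-fold for asRNA:CR45481. For lncRNA:CR44845, with 33.2% of its exonic bases over CG5731, it varied 3.64-fold, at 3.41%, 7.65% and 12.4% in Double. The member thus did not follow CG5731 within Double. In the fourth pair cer, which encodes the cysteine protease inhibitor Crammer, had a log2 fold change of -0.72 (SE 0.13, edgeR adjusted p = 0.0317), and asRNA:CR45925 one of -0.09 (adjusted p = 0.951). The 3 members' values may hold reads of the partner, and this was not tested. The use of strand in the counting is not stated.

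**Figure D3:**
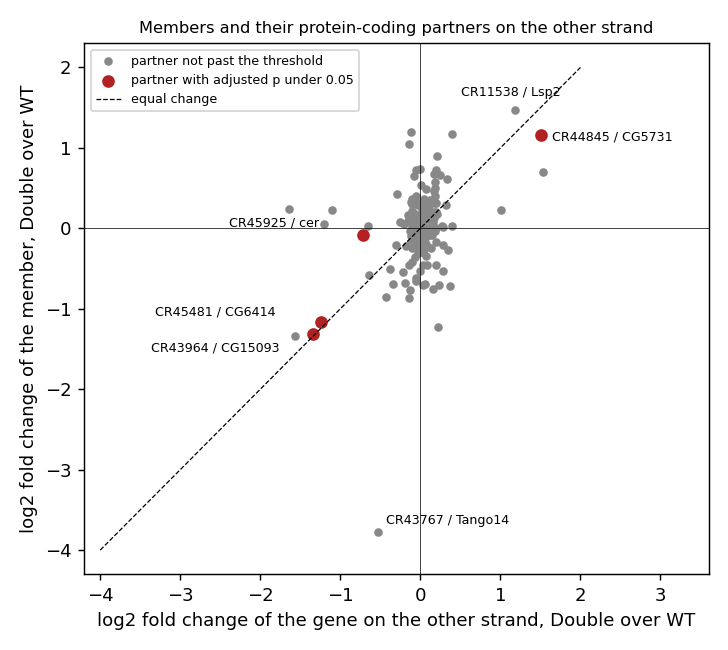
Log2 fold change of Double over WT of each member (vertical axis) against that of its protein-coding partner on the other strand (horizontal axis), for the 165 pairs with a tested partner; red points have a partner with an adjusted p under 0.05 and the dashed line marks equal change. CR43964, CR45481 and CR44845 lie near the line, while CR43767 lies at -3.77 with Tango14 at -0.52.

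Some members differed more between libraries than between the groups. The highest library was at least 4 times the lowest for 24 members (10.2%, background 11.6%), and in 15 of these the groups overlapped. 5 of the 24 had a mean of 5 CPM or more. The median ratio of highest to lowest library was 2.03 for the members and 1.33 for all tested genes.

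lncRNA:cherub, known from neural stem cells of the brain, where it is partitioned unequally at division, varied most. It had 10.1, 20.2 and 98.1 CPM in Double, against 1.40, 105.2 and 127.1 CPM in WT. Double replicate 3 stood with the high WT libraries and WT replicate 1 was lowest, a 90.7-fold range. Between the groups it had a log2 fold change of -0.86 (SE 1.62), and edgeR gave an adjusted p of 0.866. The neuron and glia list (elav, nSyb, brp, Syt1, repo and para) summed to 101.3, 73.5 and 121.1 CPM in Double, against 74.9, 147.3 and 184.8 CPM in WT. Its 6 genes were all tested, none was at 0 and none was called, and the 3 libraries highest in lncRNA:cherub were also highest in that sum. Its part in the result was not tested.

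asRNA:CR11538 on 3L, 87.9% of which lies over Lsp2, a larval serum protein gene of the fat body, varied almost as much. It was at 186.1, 38.0 and 110.9 CPM in Double, against 2.29, 77.3 and 43.9 CPM in WT. The groups overlapped (log2 fold change 1.47, SE 1.26, edgeR adjusted p = 0.698). Lsp2 had 3166, 780.2 and 1968 CPM in Double, against 38.1, 1564 and 1009 CPM in WT, in the same order of libraries. The antisense counts were 5.88%, 4.87% and 5.64% of those of Lsp2 in Double, against 6.0%, 4.94% and 4.35% in WT, so this ratio varied 1.38-fold while asRNA:CR11538 varied 81.4-fold and Lsp2 83.1-fold. The fat body sum was 13680, 3317 and 8639 CPM in Double, against 330, 6989 and 4876 CPM in WT, with 1 of its 10 genes at 0 and none called, and its part in the result was not tested.

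Other members with the widest ranges were weaker. lncRNA:CR43166 on 3R had 12.7, 1.18 and 3.28 CPM in Double, against 0.590, 5.20 and 2.35 CPM in WT. Its log2 fold change of 1.10 (edgeR adjusted p = 0.726) was -0.28 without Double replicate 1. lncRNA:CR44024 on chromosome 4 had 0.517, 0.181 and 3.48 CPM in Double, against 0.885, 2.60 and 2.35 CPM in WT, with overlapping groups (-0.48, adjusted p = 0.871). Of 20 pairs whose protein-coding partner had a 4-fold library range, the member had one in 2, asRNA:CR11538 and asRNA:CR45712. The partners of these 2, Lsp2 and CG15353, had means of 1421 and 54.5 CPM. All other partners among the 20 were weak, with means of at most 4.26 CPM (CG15765). The part of counting noise in their ranges was not tested. CG15765 itself varied 44.0-fold, against 2.52-fold for its member lncRNA:CR43264. Of the other 158 pairs, 14 members had a 4-fold library range.

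**Figure D4:**
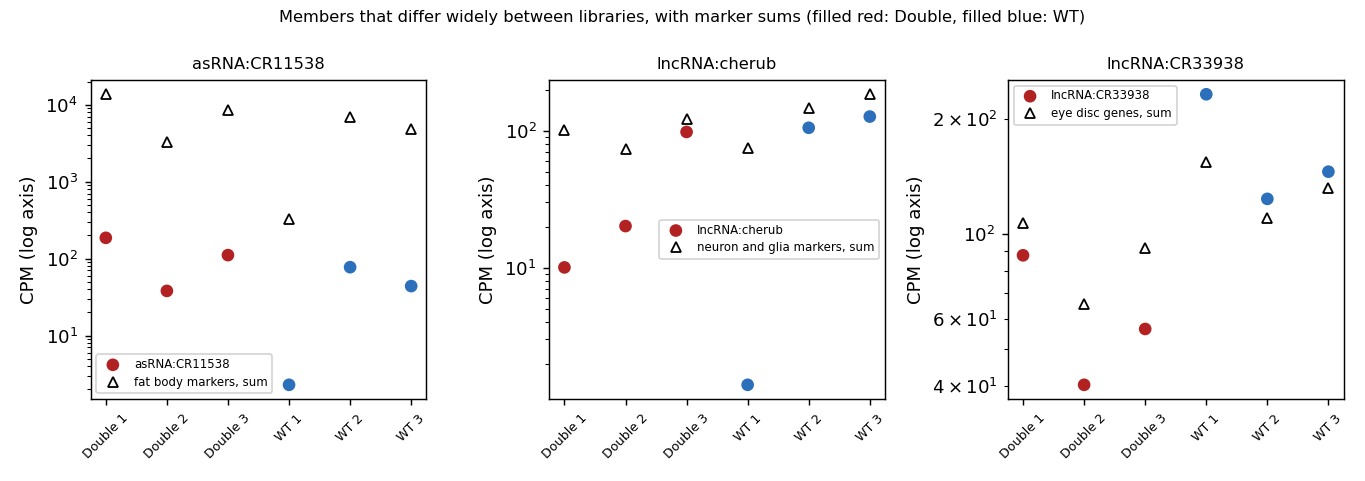
Levels in CPM (log axes) per library of asRNA:CR11538, lncRNA:cherub and lncRNA:CR33938 as filled points (Double left in red, WT right in blue), with the summed CPM of fat body, neuron and glia, and eye disc genes as open triangles. The eye disc genes were picked after values of these data were seen. WT replicate 1 is lowest for asRNA:CR11538 (2.29 CPM) and lncRNA:cherub (1.40 CPM), and highest for lncRNA:CR33938 (231.5 CPM).

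None of the 6 most abundant members passed the edgeR test, and of these lncRNA:CR33938, described above, passed DESeq2. lncRNA:CR42862 on 3L alone took 53.1% of all member counts, with 2462, 2490 and 2489 CPM in Double, against 2238, 2570 and 2664 CPM in WT. The groups overlapped (log2 fold change -0.01, SE 0.08, edgeR adjusted p = 0.985). It ranked 26 among all tested genes by CPM and 140 by CPM per kilobase. The next 10 members together took 17.5% of the member counts.

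lncRNA:CR42491, which lies within the ribosomal protein gene RpL22 on X and holds snoRNA:Psi18S-531, a guide for modification of ribosomal RNA, had 105.0, 95.3 and 98.2 CPM in Double, against 144.4, 116.4 and 104.1 CPM in WT (log2 fold change -0.29, edgeR adjusted p = 0.368). lncRNA:CR34335, also on X, had 73.8, 75.4 and 65.2 CPM in Double, against 114.6, 90.2 and 80.2 CPM in WT. Its groups did not overlap, and it did not pass the test (-0.41, adjusted p = 0.256). asRNA:CR45874, opposite the ribosomal protein gene RpS9, had 86.4, 98.4 and 82.7 CPM in Double, against 130.9, 80.7 and 80.7 CPM in WT. lncRNA:marge had 107.7, 71.2 and 70.9 CPM in Double, against 124.2, 72.1 and 75.2 CPM in WT. The log2 fold changes of these last 2 were -0.13 and -0.12, and each was above 0 without WT replicate 1.

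All members together took 0.464%, 0.437% and 0.456% of the counts in Double, against 0.477%, 0.473% and 0.484% in WT. The mean share was 0.452 ± 0.0136% in Double and 0.478 ± 0.00548% in WT (SD, n = 3 each), and the 3 Double libraries lay below the 3 WT libraries. Without lncRNA:CR42862 the shares were 0.221%, 0.189% and 0.206% in Double, against 0.254%, 0.216% and 0.215% in WT, and the groups overlapped. Without the fat body and salivary gland markers in the totals, the means were 0.457% in Double and 0.481% in WT.

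40 genes of these classes carry a name other than a CR number, and 7 of them were members. lncRNA:Hsromega, the heat shock RNA that organizes nuclear speckles, had 71.1, 61.2 and 61.9 CPM in Double, against 82.1, 67.1 and 69.8 CPM in WT (log2 fold change -0.17, edgeR adjusted p = 0.527). The others, none of them called, were lncRNA:noe at 0.09, lncRNA:mimi at -0.37, lncRNA:let7C at -0.14 and asRNA:ASTR at -0.01, besides lncRNA:cherub and lncRNA:marge.

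8 members hold microRNA genes within their span, and none was called. lncRNA:let7C, the precursor of the developmental timing microRNAs let-7, miR-100 and miR-125, had 3.19, 3.26 and 1.69 CPM in Double, against 3.02, 2.49 and 3.44 CPM in WT. lncRNA:CR43334, which spans the locus of bantam, a growth-promoting and anti-apoptotic microRNA, had 7.58, 7.96 and 6.06 CPM in Double, against 4.28, 5.43 and 6.15 CPM in WT (log2 fold change 0.45, edgeR adjusted p = 0.499). lncRNA:CR46006, which holds mir-276a, had 9.30, 5.43 and 7.35 CPM in Double, against 9.88, 10.7 and 13.5 CPM in WT (-0.63, adjusted p = 0.318). Its groups did not overlap, while those of the 2 RNAs before it did. The remaining 5, which hold mir-279 and mir-996, mir-9a, mir-8, mir-281-1 and mir-281-2, and, in lncRNA:Hsromega, mir-4951, had log2 fold changes of -0.47 to 0.28.

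No member lay within 100 kb of dac, and the nearest, lncRNA:let7C, was 1970 kb away. The genes of the RNA exosome, which degrades and trims nuclear non-coding transcripts, were read as the other genes of the pathway. 11 were tested and none was called at an adjusted p under 0.05 or stood at an unadjusted p under 0.05 in edgeR. Their log2 fold changes ran from -0.23 to 0.14, with a median of -0.07.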

How the data were processed

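RNA of leg discs was measured in 6 strand-specific poly-A libraries (NovaSeq 6000, 150-base paired reads, per the labels' protocols). The authors deposited raw counts per gene. The submitters' processing notes name STAR 2.7.0, HTSeq, DESeq2 and dm6; whether HTSeq used strand is not given in the sources. Of 17612 genes, 17540 matched the Ensembl BDGP6.54 annotation (release 115), which gave symbols, exons and strands.

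Counts were fitted with edgeR 4.0.16 (TMM factors, filterByExpr by group, robust quasi-likelihood F test, group only) on all 8802 genes that passed the filter, with Benjamini-Hochberg adjustment over them and a threshold of 0.05. The code was tested on simulated data. CPM use TMM-scaled library sizes, and SE is the log2 fold change divided by the square root of F. Common biological variation was 20.4%. Replicates differed beyond counting noise (chi-square divided by its degrees of freedom: 8.99 to 36.3). Alternatives were RLE factors, library totals, 2 other filters, DESeq2 1.42.0, limma-voom 3.58.1, a replicate block, an adjusted p under 0.01 and each library left out.

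Named genes are the members called, the 6 most abundant, the 6 not called with the largest change without overlap, the 6 with the widest library range, those beside the count limit, RNAs with names, lncRNA: and asRNA: genes within 100 kb of dac, neighbours of called members and the RNA exosome genes. Other microRNA-holding members, members opposite a called gene, asRNA:CR44029, asRNA:CR43425, CR43361 and the pairs named for their levels were named after their values were seen. The members and lists were chosen with earlier results of these data known. No sequence was used.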

Additional observations from a re-analysis of the deposited data

How the results depend on the processing

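The number of members lower in Double was 2 in most settings and 3 with DESeq2, with the replicate block and with a count sum of 50 or more; it stayed 2 when each library was left out. Members higher in Double numbered 0, but 1 with DESeq2. Over all genes, calls higher in Double (48) were 118 with DESeq2, 19 at an adjusted p under 0.01 and 16 to 59 with 1 library left out; calls lower (83) were 175, 35 and 30 to 98. The replicate numbers do not pair the libraries (correlations of same-numbered deviations -0.0706, -0.251 and 0.389); with the replicate block lncRNA:CR33938 also passed (adjusted p = 7.33e-05), and all genes gave 67 higher and 99 lower. The members' share of counts was 0.205% in Double and 0.228% in WT without the member with the most counts. Antisense members numbered 183, or 133 with 50% of their exonic bases covered.

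Of 392 values for 28 named genes, 367 kept direction and side of the threshold, 5 passed it newly, 6 (all CG10417) no longer passed and 14 changed sign, none of them called. lncRNA:cherub was at 0.29 with limma-voom. asRNA:ASTR was at 0.0009877 with limma-voom and 0.0666 with the block. With 1 library left out, lncRNA:CR42862 ran from -0.0768 to 0.0365, asRNA:CR45874 from -0.26 to 0.15, lncRNA:marge from -0.36 to 0.18, lncRNA:CR43166 from -0.28 to 1.97, lncRNA:CR44024 from -2.43 to 0.039, lncRNA:noe from -0.14 to 0.24, lncRNA:let7C from -0.29 to 0.10 and asRNA:ASTR from -0.21 to 0.41. The members' median log2 fold change was 0.12 without WT replicate 1 (all genes 0.01) and -0.11 to -0.007 without another library. The cause was not tested. Low counts limit most members: 155 had under 5 CPM.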

Other observations

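Most genes of these classes with a name other than a CR number had few or no counts in these discs. Of the 40 named genes, 20 had no count in any library and 13 had sums of 1 to 99. Most of those without a count belong to a single numbered series, the TS genes. The others without a count were lncRNA:Yu, lncRNA:CRG, lncRNA:osk, lncRNA:SMRG and lncRNA:enrr. The Hox cluster RNAs lncRNA:bxd, lncRNA:iab4 and lncRNA:iab8 had 7, 2 and 3 counts over all 6 libraries. lncRNA:flam, the piRNA cluster of ovarian follicle cells, had 15 counts, lncRNA:yar, between yellow and achaete, had 9, and lncRNA:acal, described in dorsal closure, had 4. asRNA:bsAS, opposite blistered, came closest to the limit among them with 97 counts and did not pass the test (log2 fold change -0.29, edgeR adjusted p = 0.847).

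Besides lncRNA:CR45386, lncRNA:CR33948 on 3L had 0 counts in each Double library, against 3, 31 and 13 counts in WT, and lncRNA:CR44608 on 2L had 0 counts in each Double library, against 13, 5 and 4 counts in WT. Neither passed the filter on low counts, so neither was tested. They are named because Double was at 0, and the share of all genes with such a pattern is not given. Of the 3 genes of these classes within 100 kb of dac, the nearest, lncRNA:CR44994 at 4226 bases, had 3, 4 and 3 counts in Double, against 0 counts in each WT library. It did not pass the filter either and was not tested. lncRNA:CR45354 and lncRNA:CR45355 had 2 and 1 counts over all libraries.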
